A study of Sus scrofa with 6 samples.

Results

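Aquaporins are membrane channels that let water cross cell membranes along osmotic gradients. On the pig arrays, a probe counted as an aquaporin probe when the files named it AQP1, AQP3, AQP4, AQP7 or AQP11 or when its description held the word aquaporin. This gave 12 of the 43603 probes. They stood for 8 named genes, with 2 probes each for AQP1 and AQP3 and 1 each for AQP4, AQP5, AQP7, AQP8, AQP9 and AQP11, and for 2 transcripts without a gene name that were described as similar to AQP5 of a duck and AQP8 of a hopping mouse. The family was chosen by the difference of AQP4 between the muscles compared, about 4-fold in favour of the psoas major, so that difference is a description and carries no test. The other members were taken by name and were tested.

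One branch of the family, the aquaglyceroporins, also passes glycerol, and a further group sits mainly in membranes inside the cell. In rodent skeletal muscle AQP4 lies in the sarcolemma, mainly of fast-twitch fibres, where it is held by the dystrophin complex, whereas AQP1 is the water channel of capillary endothelium and red blood cells.

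The aquaporins were followed here in 2 pig muscles, the longissimus dorsi (LDM), a glycolytic muscle, and the psoas major (PMM), an oxidative one. All samples came from female Landrace pigs aged 210 days that shared 1 diet from weaning at 28 days and had been off feed, with water, for 24 h before slaughter. RNA from the middle of each muscle was measured on Agilent arrays in the Cy3 channel alone, and each muscle had 3 arrays. Each sample was a piece of whole muscle, so fewer cells of a type and less RNA per cell cannot be told apart. The labels on RNA extraction speak of adipose tissue, while the sample names and the tissue labels give the muscles. The myosin heavy chain genes of the contractile apparatus, MYH7 of slow fibres and MYH2 and MYH4 of fast fibres, were well above background on all 6 arrays, and so was ADIPOQ, the adipocyte hormone adiponectin.

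Each probe is an oligo of 60 bases. The oligos of AQP4, AQP7, AQP1 and AQP3 are shown with the bases that they share with other aquaporin oligos. For AQP1 and AQP3, which had 2 oligos each, the one designed on the RefSeq transcript is shown. Capitals mark a longest run of bases that an oligo shares with the oligo of any other aquaporin on the array.
AQP4, probe A_72_P165426: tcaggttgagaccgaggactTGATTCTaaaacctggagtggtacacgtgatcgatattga
AQP7, probe A_72_P106716: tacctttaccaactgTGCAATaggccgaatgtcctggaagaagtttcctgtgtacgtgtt
AQP1, probe A_72_P302884: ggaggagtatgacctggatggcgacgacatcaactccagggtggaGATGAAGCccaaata
AQP3, probe A_72_P088641: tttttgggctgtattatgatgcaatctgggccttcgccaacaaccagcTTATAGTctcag
The longest shared run was 7 bases for AQP4 (with AQP5), 6 for AQP7 (with AQP3), 8 for AQP1 (with AQP11) and 7 for AQP3 (with AQP11). For the oligos not shown, it was 7 bases for AQP1 (A_72_P368933) and 8 for AQP3 (A_72_P136686). No aquaporin oligo shared 20 bases with any other probe of the array. Only oligos were compared with each other. Whether an oligo matches the transcript of another member was not examined, so the short runs do not show that a signal belongs to 1 member. Each of the 4 oligos could be read without a stop codon in at least 1 of its 3 forward frames, as could 76.0% of all probes. Chromosomal positions were given as unmapped in the files, so none is printed.

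Signals are given as log2 of the deposited spot intensity minus log2 of the 75th percentile of the intensities of the array, so that 0 is the level of that percentile. A probe was called detected on an array when its spot was marked as well above background. Of the 12 aquaporin probes, 9 were detected on all 6 arrays. They were the probes of AQP1, AQP3, AQP4, AQP5, AQP7, AQP8 and AQP11. AQP9, an aquaglyceroporin best known from liver, was detected on 0 of 6 arrays, with intensities from 2.35 to 6.30. Another oligo that the files named AQP9 lay outside the choice of probes, since its description did not hold the word aquaporin. It was likewise detected on 0 of 6 arrays. The transcripts similar to duck AQP5 and hopping mouse AQP8 were also detected on 0 of 6 arrays, with intensities from 4.87 to 19.0 and from 4.41 to 6.19. For comparison, the dimmest spot marked as well above background had an intensity between 4.66 and 13.6, depending on the array.

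Among all probes of the arrays, 25837 were detected on all 3 arrays of either muscle and were tested with limma, which called 8 of them (0.031%) at an adjusted p below 0.05. None of the 8 tested aquaporin probes other than AQP4 was called, and their adjusted p was 0.99998 throughout. With the replicate number as a block, limma called 17 probes (0.0658%), again with 0 of these 8 aquaporin probes among them. At an unadjusted p below 0.05 limma gave 678 probes (2.62%), and AQP7 and 1 of the AQP3 probes were among these. The smallest p that exact permutation of 3 against 3 arrays can give is 0.1, two-sided.

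**Figure D1:**
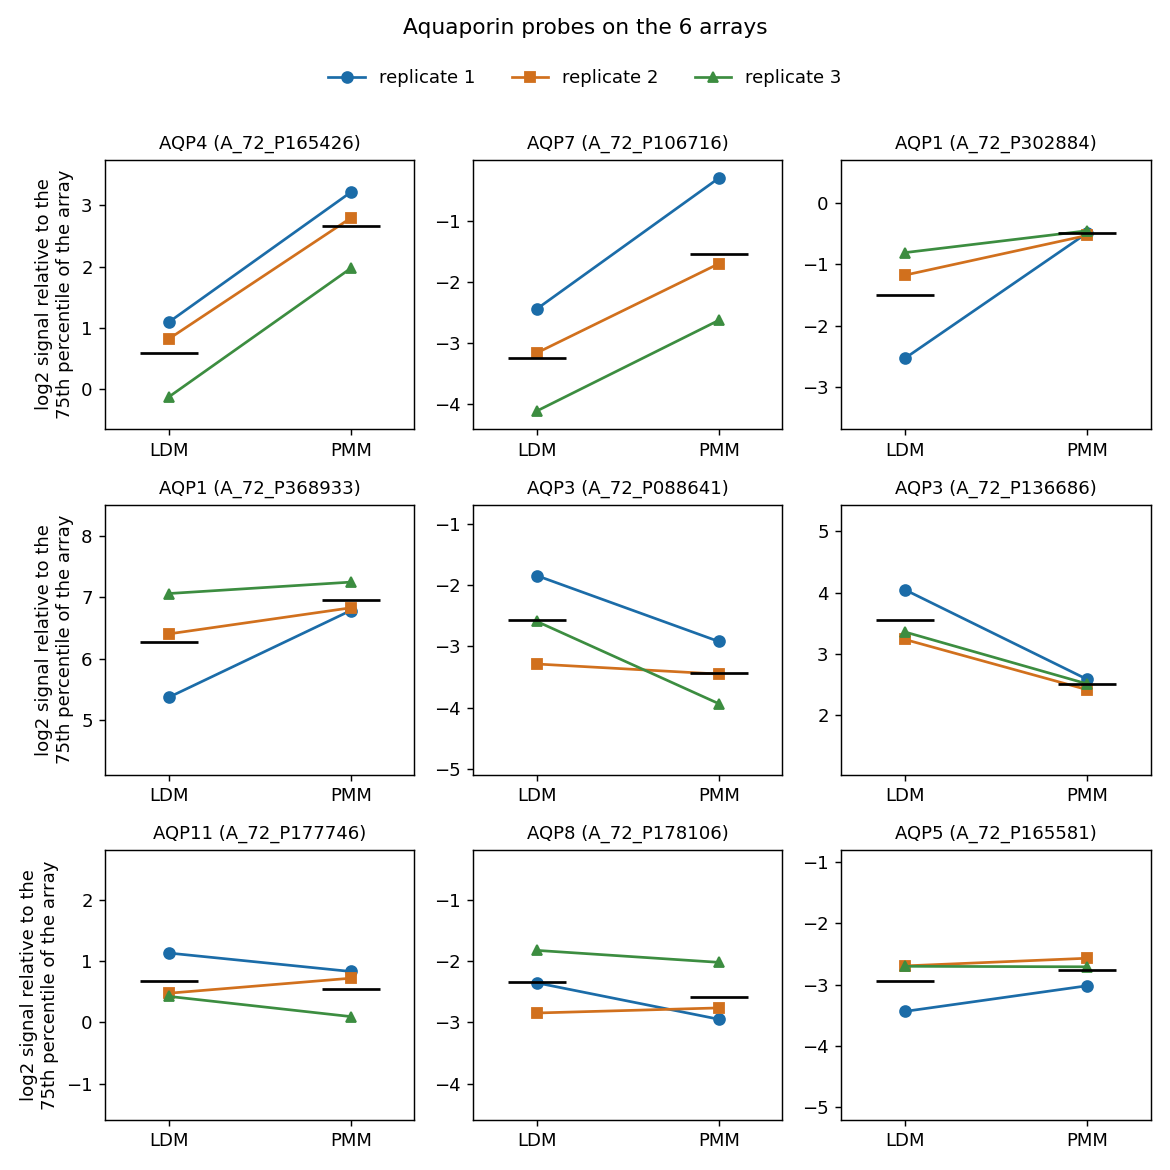
Log2 signal (vertical axes, relative to the 75th percentile of the array, each spanning the same 4.4 log2 units) of the 9 detected aquaporin probes in LDM and PMM, with lines joining arrays of the same replicate number and black bars at the means of 3 arrays. The 3 lines of AQP4 run nearly parallel with differences of 1.97 to 2.12. Those of AQP7 and AQP1 slope upward unevenly, those of AQP3 slope downward, and those of AQP11, AQP8 and AQP5 do not all slope one way.

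AQP4 had the widest difference of the family. On the LDM arrays of replicates 1, 2 and 3 its log2 signal was 1.10, 0.82 and -0.12, and on the PMM arrays it was 3.22, 2.80 and 1.97. Every PMM array thus lay above every LDM array, and in both muscles replicate 1 was the highest and replicate 3 the lowest. In intensities the LDM arrays spanned 605 to 1562 and the PMM arrays 2688 to 5528. The mean was 0.60 ± 0.64 in LDM and 2.66 ± 0.63 in PMM (SD, n = 3), a difference of 2.06 on the log2 scale or 4.18-fold. Arrays of the same replicate number differed by 4.34-, 3.92- and 4.28-fold, and these log2 differences had an SD of 0.079. The spread of AQP4 between arrays of 1 muscle, 2.33-fold in LDM and 2.36-fold in PMM, was therefore much wider than the spread of its same-numbered differences. By absolute difference AQP4 stood at rank 66 of the tested probes, 42 of which (0.163%) were higher in PMM by at least 2. Leaving out any 1 array or changing any 1 step of the processing kept the difference between 1.70 and 2.41.

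AQP7, an aquaglyceroporin through which adipocytes release glycerol and which is also found in capillaries, was next. Its log2 signal was -2.44, -3.16 and -4.11 on the LDM arrays of replicates 1, 2 and 3, and -0.31, -1.70 and -2.63 on the PMM arrays. The muscles overlapped, since PMM replicate 3 lay below LDM replicate 1, but PMM was higher in each of the 3 same-numbered pairs, by 4.39-, 2.74- and 2.79-fold. As for AQP4, replicate 1 was the highest and replicate 3 the lowest in both muscles. The mean difference was 1.69 ± 0.63 (SE; 95% interval 0.25 to 3.13), or 3.22-fold, and it did not pass the test (limma adjusted p = 0.99998, and 0.135 with the replicate block; exact permutation p = 0.2). Here and below, SEs, 95% intervals and exact permutation p-values come from comparisons that ignore the pairs. They thus include spread that same-numbered arrays share, whereas the 3 pair differences of AQP7 had an SD of 0.38. The mean difference of AQP7 was 1.07 without PMM replicate 1 and 2.23 without PMM replicate 3.

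Arrays of AQP7 within a muscle differed more than those of most probes. Its SD within muscles was 1.02 on the log2 scale, and 95.4% of the tested probes had a smaller one. In LDM the highest array was 3.17-fold above the lowest, and in PMM 4.99-fold.

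AQP1 was measured with 2 oligos. The first, A_72_P302884, gave -2.53, -1.18 and -0.81 in LDM and -0.49, -0.53 and -0.45 in PMM. Every PMM array lay above every LDM array, but LDM replicate 1 was far below the other two LDM arrays while the PMM arrays lay within 1.05-fold of each other. The second, A_72_P368933, gave 5.37, 6.40 and 7.06 in LDM and 6.78, 6.83 and 7.25 in PMM. Here the muscles overlapped, and LDM replicate 1 was again the lowest array.

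Both AQP1 oligos were higher in PMM in 3 of 3 same-numbered pairs. The mean differences were 1.01 ± 0.45 (SE; 95% interval -0.016 to 2.05), or 2.02-fold, and 0.68 ± 0.45 (95% interval -0.34 to 1.69), or 1.60-fold. Neither passed the test (limma adjusted p = 0.99998 for both, 0.390 and 0.463 with the replicate block; exact permutation p = 0.1 and 0.3). LDM replicate 1 carried much of both values, and without it the differences were 0.50 and 0.22.

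AQP3, an aquaglyceroporin of epithelial cells, was the member with lower signals in PMM. Its first oligo, A_72_P136686, gave 4.05, 3.24 and 3.36 in LDM and 2.59, 2.42 and 2.51 in PMM. Every PMM array lay below every LDM array, and the PMM arrays lay within 1.12-fold of each other. The second oligo, A_72_P088641, gave -1.85, -3.29 and -2.60 in LDM and -2.92, -3.45 and -3.94 in PMM. Here LDM replicate 2 lay below PMM replicate 1, so the muscles overlapped.

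Both AQP3 oligos were higher in LDM in 3 of 3 same-numbered pairs. The mean differences, PMM minus LDM, were -1.04 ± 0.32 (SE; 95% interval -1.78 to -0.30), or 2.06-fold in favour of LDM, and -0.86 ± 0.44 (95% interval -1.87 to 0.15), or 1.81-fold in favour of LDM. Neither passed the test (limma adjusted p = 0.99998 for both, 0.208 and 0.351 with the replicate block; exact permutation p = 0.1 and 0.2). The difference of the second oligo turned to 0.15 under normexp background correction, whereas that of the first kept its sign in each alternative run.

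The other detected members differed little in their means. AQP11, a channel of intracellular membranes, gave 1.13, 0.48 and 0.42 in LDM and 0.83, 0.72 and 0.09 in PMM, with a difference of -0.13 (95% interval -0.93 to 0.67; exact permutation p = 0.7). AQP8, known from epithelia of the gut and pancreas and from liver, gave -2.36, -2.85 and -1.83 in LDM and -2.95, -2.77 and -2.02 in PMM, with a difference of -0.24 (95% interval -1.13 to 0.66; exact permutation p = 0.6). AQP5, the channel of salivary and lacrimal glands, gave -3.44, -2.70 and -2.70 in LDM and -3.02, -2.57 and -2.71 in PMM, with a difference of 0.18 (95% interval -0.58 to 0.94; exact permutation p = 0.7). The muscles overlapped for all 3, and the same-numbered pairs did not all point one way. Each interval included 0, and the sign of each difference turned under at least 1 of the alternatives.

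**Figure D2:**
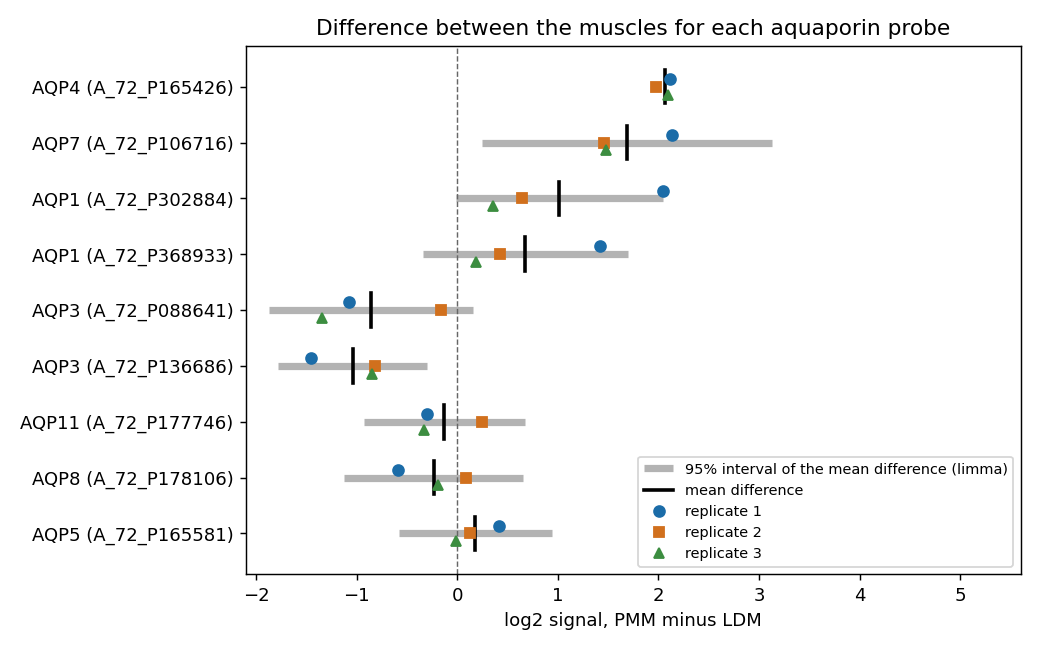
Difference in log2 signal, PMM minus LDM, of each detected aquaporin probe (horizontal axis), with 1 symbol per same-numbered pair of arrays and a black bar for the mean. A grey band marks limma's 95% interval from the fit that ignores the pairs. It is not drawn for AQP4 because its difference was not tested. The pairs of AQP4 lie closest together (SD 0.079), those of AQP7 and AQP1 are all above 0, and those of AQP3 are all below 0.

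AQP4 was left out of the counts across the family, since the family was chosen for its difference. Of the 8 other detected probes, those of AQP7 and the 2 oligos of AQP1 were higher in PMM in all 3 same-numbered pairs. Among all probes with a value on each array, 16.4% were so. Lower in all 3 pairs were the 2 oligos of AQP3, against 19.4% of all probes. Groups without overlap were found for 1 AQP1 oligo with PMM above (3.07% of all probes) and for 1 AQP3 oligo with PMM below (2.87%).

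AQP3 and the members with higher means in PMM can also be set against each other within each array, where the scaling of the array cancels. The ratio of AQP4 to AQP3 differed between PMM and LDM by 3.10 on the log2 scale with the first AQP3 oligo (2.79 to 3.58 over the pairs) and by 2.92 with the second (2.14 to 3.44), higher in PMM. The ratio of AQP7 to AQP3 was higher in PMM by 2.73 and 2.55, and that of AQP1 to AQP3 by 1.54 to 2.06 over the 4 combinations of oligos. Each value is the sum of 2 differences already given, its direction follows from the choice of the members, and the AQP4 ratios hold the difference for which the family was chosen.

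The members also differed in how their arrays were ordered within a muscle, which the difference between muscles does not enter. After the mean of each muscle was subtracted, the mean deviation of AQP4 was 0.53 for the arrays of replicate 1, 0.18 for replicate 2 and -0.70 for replicate 3. For AQP7 it was 1.02, -0.04 and -0.98. The AQP1 oligo A_72_P368933 ran the other way, with -0.54 for replicate 1 and 0.54 for replicate 3. With these deviations Pearson's r with AQP4 over the 6 arrays was 0.95 for AQP7, 0.85 for AQP11, 0.53 and 0.43 for the AQP3 oligos, -0.60 and -0.81 for the AQP1 oligos, -0.59 for AQP5 and -0.87 for AQP8. These values describe 6 arrays, in which arrays of the same number were scanned on the same day and deviations within a muscle sum to 0. Whether the scan day, the slide or the pig set this order was not tested.

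The genes most like AQP4 were sought among the 2794 named genes detected on all 6 arrays. By Pearson's r over the 6 arrays they were ITGB6, an epithelial integrin subunit (0.99), ATP1B4, a muscle relative of the sodium pump beta subunits (0.99), FABP3, the fatty acid-binding protein of heart and muscle (0.99), DDAH1, which breaks down methylated arginines (0.98), and NDUFA4, a subunit of the respiratory chain (0.98). All 5 lay higher in PMM, and the 2 genes with the widest differences were FABP3 (2.16) and DDAH1 (1.65). A likeness over both muscles rests largely on their difference. After subtraction of the muscle means r was 0.95 for ITGB6, 0.95 for ATP1B4, 0.93 for FABP3, 0.95 for DDAH1 and 0.90 for NDUFA4. The 5 genes were picked for a high r over the same 6 arrays, which favours a high r after the subtraction too. These values are therefore no separate evidence of likeness, and how many of the 2794 genes reach them was not counted. Over both muscles AQP7 had an r of 0.94 with AQP4.

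**Figure D3:**
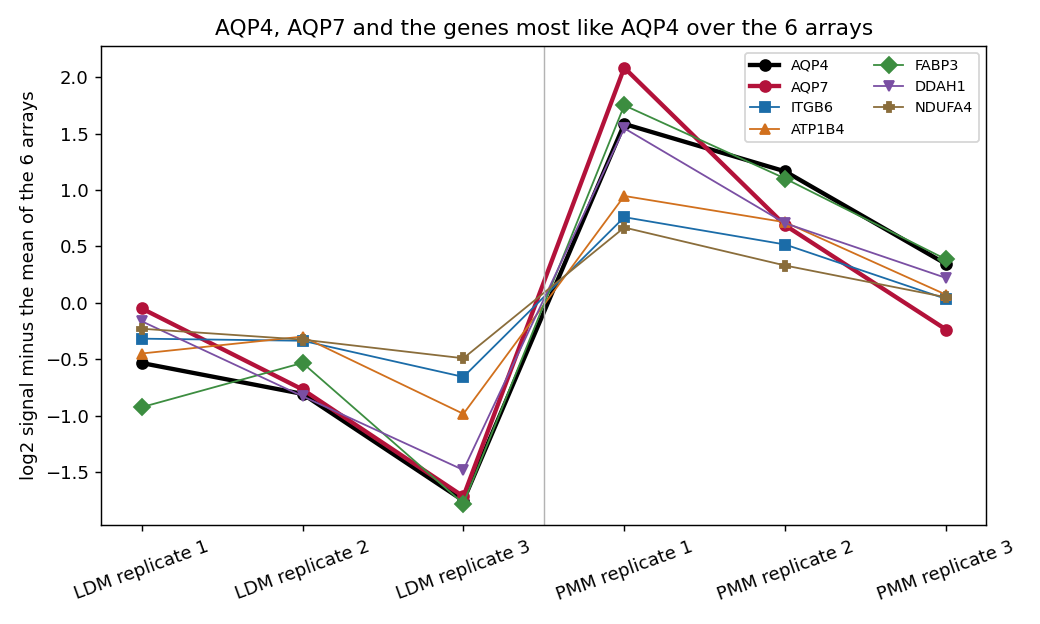
Log2 signal minus the mean of the 6 arrays (vertical axis) of AQP4, AQP7 and the 5 genes most like AQP4, array by array. The 3 PMM arrays lie above the 3 LDM arrays for AQP4 and the 5 genes, replicate 3 is the lowest array of each muscle for all 7, and AQP7 has the widest span within a muscle.

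The fibre genes were set beside AQP4 as markers of the 2 fibre classes. All 8 tested slow fibre genes were higher in PMM in 3 of 3 pairs (20.1% of all named genes were), with a median difference of 0.54 against -0.012 for the 2924 named genes tested. TNNI1, the slow troponin I, differed by 1.03 and MYOZ2, a Z-disc protein, by 1.02, while MYH7 differed by 0.46 (0.23 without PMM replicate 1 and 0.72 without LDM replicate 1). Without LDM replicate 1 the median of the list was 0.85. The 11 tested fast fibre genes had a median of 0.050, and 3 were higher and 1 lower in all 3 pairs (20.1% and 21.5% of all named genes). MYH2, the myosin of fast oxidative fibres, differed by 0.49 (0.17 without PMM replicate 1 and 0.83 without LDM replicate 1), and MYH4, the myosin of the fastest fibres, by -0.10. None of these genes was called by limma, and neither was any of the 2924 named genes (0%). The summed signal of the slow fibre list spanned 1736 to 2392 on the LDM arrays and 2485 to 3930 on the PMM arrays, in units of the 75th percentile, without overlap, and its part in the aquaporin differences was not tested.

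The dystrophin complex, which anchors AQP4, was represented by 7 of its 16 listed genes. None was called, 0 were higher and 4 were lower in PMM in 3 of 3 pairs (21.5% of all named genes were lower in all pairs), and the median difference was -0.27. LAMA2, the laminin chain outside the fibre, differed by -0.98, the syntrophin SNTB1 by -0.50, the sarcoglycan SGCD by -0.32 and DMD, dystrophin itself, by -0.20. Single arrays carried much of the median and of the values of SNTB1 and SGCD. Without LDM replicate 1 the median turned to 0.073 and SNTB1 was at -0.029, and without PMM replicate 3 SGCD was at -0.069. LAMA2 stayed between -1.24 and -0.80 whichever array was left out.

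Genes of the processes that the channels serve were considered next. The first were 7 tested genes of glycerol and triglyceride handling, the metabolism around the glycerol that AQP3 and AQP7 can carry. Of these, 2 were higher in PMM in 3 of 3 pairs and 0 were lower (20.1% and 21.5% of all named genes). Their median was 0.018 and none was called. The 2 higher genes were PNPLA2, the lipase that starts triglyceride breakdown (0.80), and GPAM, an acyltransferase that starts triglyceride synthesis (0.71). Without PMM replicate 1 the difference of PNPLA2 was 0.38, and without LDM replicate 3 that of GPAM was 0.33. Of the 7 tested genes of cell volume and ion transport, 2 were higher and 2 lower in 3 of 3 pairs, against the same shares. Their median was 0.023 and none was called. TRPV4, an osmotically sensitive cation channel, differed by 0.74.

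Because AQP1 and AQP7 are also carried by cells other than muscle fibres, markers of those cells were measured. All 9 tested endothelial genes had a higher mean in PMM, 7 of them in 3 of 3 pairs, with a median of 0.41. Of the 2924 named genes tested, 1405 had a higher mean in PMM, and 20.1% were higher in all pairs. ENG differed by 0.79 and PECAM1 by 0.28. The median came to 0.73 with LDM replicate 3 left out, to 0.22 with PMM replicate 3 left out and to 0.033 without LDM replicate 1, the array without which the AQP1 differences were also smallest. The summed endothelial signal spanned 58.3 to 178 in LDM and 102 to 175 in PMM, with overlap, and its part in the values of AQP1 and AQP7 was not tested. Of the red cell genes, HBB differed by 1.06, by 1.65 without LDM replicate 2 and by 0.060 without LDM replicate 1, and HBA1 by -0.091. The summed signal of these 2 genes overlapped between the muscles, with 3.23 to 4.26 in LDM and 3.54 to 4.18 in PMM.

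Adipocyte markers had differences in both directions. Among the 10 tested, 5 were lower and 3 higher in PMM in 3 of 3 pairs, with a median of -0.53. Of all named genes, 21.5% were lower and 20.1% higher in all pairs. It came to -0.20 with LDM replicate 3 left out, to -0.24 with PMM replicate 1 left out, to -0.27 over probes detected on all 6 arrays and to -0.075 under normexp. PLIN1, the coat protein of fat droplets, differed by -1.03, CIDEC, another droplet protein, by -0.86, and ADIPOQ by -0.63. LPL, the lipase that frees fatty acids from lipoproteins in the blood, differed by 1.12. FABP4 and PPARG, also higher in all 3 pairs, differed by only 0.099 and 0.054. The summed signal of the 10 genes overlapped, with 81.4 to 244 in LDM and 85.2 to 262 in PMM. Without PMM replicate 1 the differences of PLIN1, CIDEC and ADIPOQ were -0.30, -0.37 and -0.18. PLIN1 was detected on 2 of the 3 PMM arrays, so its PMM mean includes a spot not well above background, and its difference turned to 0.56 under normexp background correction. Nerve and Schwann cell markers (4 tested) had a median of -0.21, and leukocyte markers (7 tested) one of 0.062. The medians of the slow fibre, endothelial and adipocyte lists kept their sign under each alternative run, and those of the other lists with at least 4 tested genes did not. As over all named genes, no gene of any cell type list was called by limma, and the parts of these cells in the values of the aquaporins were not tested.

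**Figure D4:**
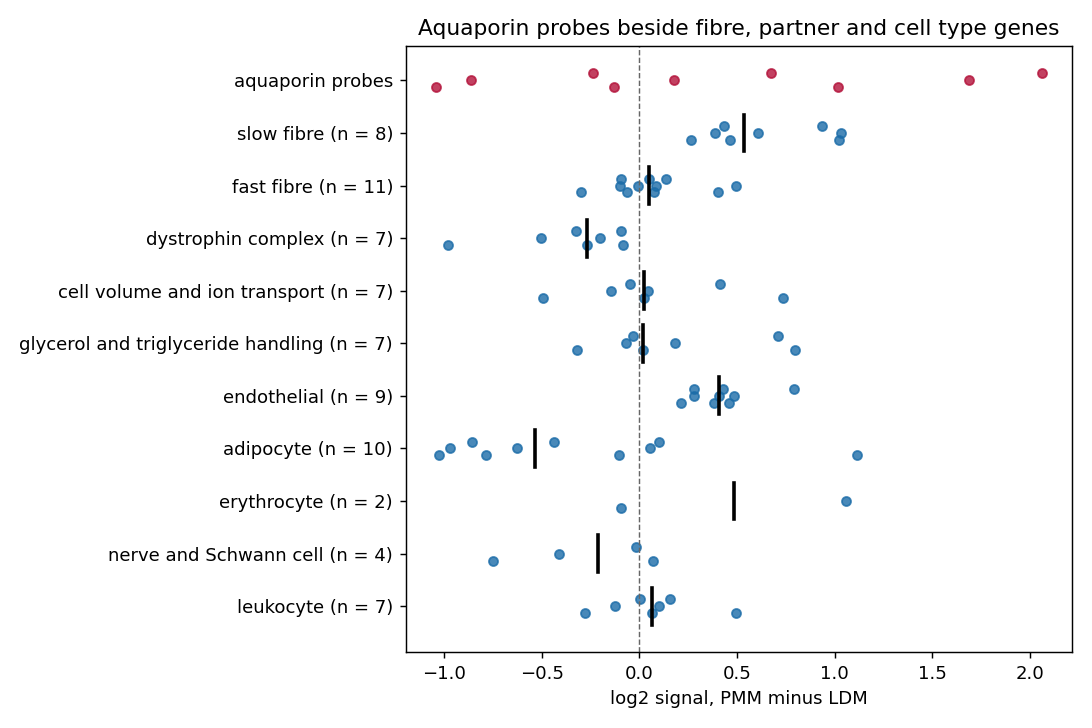
Difference in log2 signal, PMM minus LDM (horizontal axis), of the 9 detected aquaporin probes (red points) and of the tested genes of each list (blue points, 1 per gene, with n), with a black bar at the median of a list. AQP4 at 2.06, for which the family was chosen, and AQP7 at 1.69 lie beyond every gene of the lists, whose highest value is LPL at 1.12. Genes outside the lists had differences of like size, such as FABP3 at 2.16 and DDAH1 at 1.65. The slow fibre genes all lie above 0.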

How the data were processed

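Cy3-labelled RNA of LDM and PMM was measured on 6 one-colour Agilent arrays. The authors deposited linear spot intensities from Agilent Feature Extraction 10.5.1.1, which subtracts background and corrects spatial trends within an array but does not normalize between arrays. The deposited value table of the series held the same intensity values, within 0.005 units, in an unlogged and uncentred form. The 75th percentile of intensity was 595 to 883 units, 58.5% to 72.4% of the spots of an array were well above background, and 0 were saturated. The number of arrays limits the precision.

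Control spots were removed, as were spots marked as outliers (6 to 161 an array), replicate spots were averaged to 1 value a probe, and log2 intensity minus log2 of the array's 75th percentile over all spots was used. Probes well above background on all 3 arrays of either muscle, with at least 2 values per muscle, were tested by the moderated linear model of limma 3.58.1 (two-sided, Benjamini-Hochberg over all probes, R 4.3.3). The paper names the MultiExperiment Viewer for this step, and its text gives no normalization or test for the arrays. Single probes were also compared by exact permutation. Shares of probes without overlap or with 3 of 3 pairs one way were taken over the 25727 tested probes with a value on all 6 arrays. The test was checked on simulated data first. Figures were drawn with matplotlib 3.10.9.

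Probes were named from RefSeq accessions (3071 probes), gene numbers (1230), symbols in the files (885) and, for genes of the lists, descriptions (24), using only the names of a RefSeq table for Sscrofa11.1. The remaining 38393 of the 43603 probes had no name and stayed in the test. A gene with several probes was represented by the brightest one. The lists covered the dystrophin complex, glycerol and triglyceride handling, cell volume and ion transport, slow and fast fibres, endothelial cells, adipocytes, erythrocytes, nerve and Schwann cells and leukocytes. Genes to be named were all aquaporin probes, at most 4 per list by the size of their difference together with a few set markers, and the 5 genes most like AQP4. The members and lists were chosen with earlier results of these data known, and the names taken from descriptions were added after the files had been seen.

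Each of the 3 pigs gave both muscles, and no source ties a replicate number to a pig. The deviations of same-numbered arrays from the means of their muscles correlated at 0.62, 0.70 and 0.56, and the numbers were therefore treated as pairs. Replicate number and scan day coincided. The arrays of a muscle also lay on different slides, shared between the muscles for replicates 2 and 3 but not for replicate 1. Nothing else says what separates the arrays of a muscle, so p-values measure the spread between these arrays. Alternatives covered the normalization, the background correction, outlier spots, the filter on dim probes, the replicate number or the slide as a block, the value table, genes in place of probes and leaving out each array.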

Additional observations from a re-analysis of the deposited data

How the results depend on the processing

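AQP4 stayed higher in PMM under each of the 18 alternatives (1.70 to 2.41), and so did AQP7 (1.07 to 2.23), while the AQP3 probe A_72_P136686 stayed lower (-1.28 to -0.79). The family was chosen for the difference of AQP4, so its range is a description only. Some alternatives, such as the filters on dim probes and the replicate block, do not enter the mean difference of these probes. They left AQP4 at 2.06 and AQP7 at 1.69. The number of probes called, 8, moved to 17 with the replicate block, which changed no call of an aquaporin, to 3 under normexp, to 529 with the slide as a block and to 0 with outlier spots kept, with no filter on dim probes, with only probes detected on all 6 arrays, with the percentile taken over those probes, with genes in place of probes, and with the percentile taken over probes in place of spots, an alternative chosen after seeing the data. It was 0 to 1 when any 1 array was left out. The cause was not tested. Of the 25837 tested probes, the slide block called 529. Of the 8 tested aquaporin probes other than AQP4 it called 1, namely AQP7 (1.47, limma adjusted p = 0.000365). The arrays of replicate 1 lay on slides of their own, so this difference rests on 2 pairs. With a term for each slide, little was left to estimate the spread of a probe. Signs turned under normexp for the AQP3 probe A_72_P088641 (0.15), AQP8 (0.47), PECAM1 (-0.018) and PLIN1 (0.56), and with the slide block for DMD (0.022). When 1 array at a time was left out, the differences that changed sign were those of AQP5 (-0.068 without LDM replicate 1, to 0.30), AQP11 (-0.27 to 0.099, above 0 without LDM replicate 1 or PMM replicate 3), AQP8 (-0.51 to 0.023, above 0 without LDM replicate 3), DMD (-0.55 to 0.11), MYH4 (-0.46 to 0.14), PECAM1 (-0.16 to 0.73) and HBA1 (-0.27 to 0.092). Normexp moved the median difference of all tested probes from -0.041 to 0.19, and the AQP3 value of 0.15 lay below that median.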
